A study of Mus musculus with 20 samples.

Results

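The genes described here are the secreted Wnt ligands, the receptors and co-receptors that bind them, the R-spondins that amplify the signal, the secreted antagonists, and 3 nuclear or feedback genes of the pathway. They were chosen by symbol: every row named Wnt, Fzd, Sfrp or Dkk followed by a number, with Wif1, Axin2, Lef1, Tcf7, Lgr4 to Lgr6, Rspo1 to Rspo4, Lrp5 and Lrp6. That rule was set with earlier results of these data known. The rule gave 50 genes of the 23284 in the table. They are 19 ligands, 10 Frizzled receptors, 2 LRP co-receptors, 7 LGR receptors and R-spondins, 9 secreted antagonists, and Tcf7, Lef1 and Axin2.

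The libraries came from tissue recombinants, which are grafts made by joining an epithelium to an embryonic mesenchyme and letting them grow in a host. Mouse prostate epithelium (PE) or seminal vesicle epithelium (SVE), from donors aged 2 months, was joined to urogenital sinus mesenchyme of Sprague Dawley rats and taken 3 months after implantation. PE and SVE name the grafts of those epithelia, both labelled wild-type for NKX3.1, and the other 3 groups hold seminal vesicle epithelium with a construct (labelled mNKX3.1), with a hairpin (labelled UTY_sh) or with both (mNKX3.1+UTY_sh). What the m stands for, mouse or mutant, is not given. Each of the 5 groups has 4 libraries. All groups share the mesenchyme, the graft age and the labelled treatment, doxycycline in the drinking water for 3 months. That drug switches on an altered pTRIPZ vector, for which the labels mention a wild-type NKX3.1 and a point mutant without saying which group carries which. The strain is labelled as a hybrid of 129/SvImJ and C57Bl/6J, while the design text gives C57Bl/6J. Whether the 4 libraries of each group are 4 animals is not stated, so p-values here reflect only how these libraries spread, which may be technical.

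Wnt proteins are lipid-modified signals that act over short distances. In the canonical branch a Wnt binds a Frizzled receptor together with LRP5 or LRP6, the complex that degrades β-catenin stops working, and β-catenin enters the nucleus and acts with TCF and LEF proteins on target genes such as Axin2. R-spondins, through LGR receptors, keep Frizzled receptors at the cell surface, while SFRP proteins and WIF1 capture Wnts and DKK proteins block the LRP co-receptors. In the developing prostate, Wnt signals pass between the urogenital mesenchyme and the epithelial buds.

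Values are the authors' deposited log2 values, 1 per gene and library. A difference of 1 on this scale stands for a 2-fold difference, except at low values, where the scale is compressed towards a floor near 2.27. A gene was tested when its value reached 5 in at least 4 libraries, and 36 of the 50 genes were. A gene was called changed when its adjusted p from limma was below 0.05.

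Each PE library held about 14930000 to 20820000 reads and each mNKX3.1 library 15470000 to 21860000, while mNKX3.1+UTY_sh had 24050000 to 29810000, UTY_sh 22520000 to 24950000 and SVE 20260000 to 25000000. The 50 most abundant genes of a library took 36% to 38.2% of the reads in each PE library and 35.6% to 37.1% in each mNKX3.1 library, against 58.0% to 67.8% in SVE. All 6 tested prostate secretory genes were higher and all 7 seminal vesicle secretory genes were lower in PE than in SVE. These lists were chosen with earlier results of these data known, so they are no independent check of the tissue labels. Some libraries stood apart. PE replicate 3, the PE library with the fewest reads, had a seminal vesicle secretory sum of 14.90, against 17.54 to 17.66 in the other PE libraries. Its nerve and Schwann sum was 8.39, against 9.49 to 9.63, and its adipocyte sum was 11.04, against 9.78 to 9.96, on the log2 scale. In turn mNKX3.1 replicate 3, the mNKX3.1 library with the fewest reads, had sums near those of PE replicates 1, 2 and 4. In the same order they were 17.57, 9.62 and 9.88. The other mNKX3.1 libraries had 16.67 to 16.89, 8.98 to 9.18 and 10.51 to 10.62. The cause was not tested. mNKX3.1+UTY_sh replicate 4, UTY_sh replicate 3 and SVE replicate 1 were rich in prostate secretory RNA, with summed levels of 17.30, 16.90 and 17.88 on the log2 scale, and mNKX3.1+UTY_sh replicate 3 had 15.04, UTY_sh replicate 2 had 16.25 and SVE replicate 2 had 13.07, although SVE replicates 3 and 4 had 9.42 and 9.46. Without the 3 rich libraries, 23 in place of 22 of the genes were changed in PE against SVE, 23 in place of 22 in mNKX3.1 against SVE, and 23 with or without them in mNKX3.1+UTY_sh against mNKX3.1. Over all 13415 genes tested without them, 4188 were higher and 4085 lower in PE against SVE. In mNKX3.1 against SVE 4185 were higher and 4115 lower, and in mNKX3.1+UTY_sh against mNKX3.1 4140 were higher and 4256 lower. For mNKX3.1+UTY_sh and for UTY_sh against SVE the counts were 0 with and without the rich libraries, for these genes and over all tested genes. Uty, the target named by the hairpin's label, had values of 9.16, 9.22, 9.52 and 8.98 in the libraries labelled UTY_sh, against 9.55, 9.27, 9.04 and 9.29 in SVE. The ranges overlap. The log2 difference was -0.07 (95% interval -0.30 to 0.16), so the hairpin's target did not pass the test as lower in the libraries that carry its label. Uty also differed between graft types that carry no hairpin, with log2 differences from SVE of 0.95 in PE and 0.94 in mNKX3.1 (adjusted p = 7.27e-07 and 7.46e-07). The log2 difference of mNKX3.1+UTY_sh was -1.08 from mNKX3.1 (adjusted p = 1.37e-07) but -0.14 from SVE (95% interval -0.37 to 0.10). The part of the graft type in the difference from mNKX3.1 was not tested.

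The promoters of 4 of these genes are shown because the genes span the patterns below: Wnt2 and Wnt6 were lower in PE and mNKX3.1 grafts, and Sfrp5 and Axin2 were higher. Each window runs from 250 bases before to 50 bases after the gene's start in RefSeq on GRCm38.p6, written 5′ to 3′ on the gene's strand. Capitals mark a match to any of 3 motifs, searched on both strands: the TCF/LEF core CTTTGNA, the NK homeodomain core TAAGTA and the androgen receptor half-site AGAACA. The Wnt2 window is chr6:18030396-18030695 on the minus strand, the Wnt6 window is chr1:74771642-74771941 on the plus strand, the Sfrp5 window is chr19:42202203-42202502 on the minus strand and the Axin2 window is chr11:108920099-108920398 on the plus strand.
Wnt2: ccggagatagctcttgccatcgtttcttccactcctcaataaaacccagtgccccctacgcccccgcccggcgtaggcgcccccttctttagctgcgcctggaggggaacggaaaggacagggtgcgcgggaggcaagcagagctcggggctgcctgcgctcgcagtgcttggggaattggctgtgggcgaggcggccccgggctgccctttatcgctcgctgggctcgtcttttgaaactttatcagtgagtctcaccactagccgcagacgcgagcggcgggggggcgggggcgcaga
Wnt6: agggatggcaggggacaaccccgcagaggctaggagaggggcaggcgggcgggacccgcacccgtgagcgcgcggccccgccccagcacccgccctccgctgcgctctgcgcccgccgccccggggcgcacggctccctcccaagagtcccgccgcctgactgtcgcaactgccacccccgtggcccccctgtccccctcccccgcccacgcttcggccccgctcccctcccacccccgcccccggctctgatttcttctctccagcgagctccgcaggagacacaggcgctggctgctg
Sfrp5: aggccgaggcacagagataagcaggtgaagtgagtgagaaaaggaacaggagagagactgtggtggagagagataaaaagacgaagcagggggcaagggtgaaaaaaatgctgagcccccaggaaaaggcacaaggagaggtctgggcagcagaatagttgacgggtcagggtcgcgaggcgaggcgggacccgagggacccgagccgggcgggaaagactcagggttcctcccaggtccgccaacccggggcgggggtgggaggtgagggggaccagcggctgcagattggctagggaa
Axin2: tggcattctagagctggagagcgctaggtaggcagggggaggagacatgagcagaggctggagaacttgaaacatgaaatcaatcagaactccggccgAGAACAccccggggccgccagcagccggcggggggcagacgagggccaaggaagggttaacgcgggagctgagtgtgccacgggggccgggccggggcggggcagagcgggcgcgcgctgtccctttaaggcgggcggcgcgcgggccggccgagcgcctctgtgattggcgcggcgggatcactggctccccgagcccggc
Only the Axin2 window has a match, 1 androgen receptor half-site on the plus strand. The table of promoters held 40 windows for 33 of the 50 genes. The TCF/LEF core was in 6 of those 40 windows (15%), against 18.07% of 32851 windows of the same length. The 6 belong to Dkk1, Lef1, Wnt11 and Wnt5b. Windows of Lef1 that overlap hold the same match, which is thus counted more than once. The NK homeodomain core was in 1 (2.5%, Wnt8b), against 7.586%, and the androgen receptor half-site was in 7 (17.5%), against 18.97%. None of these shares was above that of all promoters. The windows of these genes were rich in G and C, with a median of 67.3% against 52.7% over all windows. Wnt10a and Rspo2, also among the genes with the largest differences, are named only.

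Comparing levels between genes needs a correction for transcript length. Per kilobase of exon, for the 23 genes with a mean of at least 7, the antagonist Wif1 was highest in both PE and SVE, while the order below it differed between them. In PE the log2 level per kilobase was 8.46 ± 0.50 for Wif1, 8.17 ± 0.28 for the feedback scaffold Axin2 and 7.70 ± 0.23 for the co-receptor Lrp5 (SD, n = 4), and the R-spondin receptor Lgr4 was at 7.10 ± 0.28. In SVE it was 8.89 ± 0.33 for Wif1, 8.18 ± 0.18 for Lgr4, 8.17 ± 0.11 for Lrp5 and 7.91 ± 0.10 for the transcription factor Tcf7 (SD, n = 4), with Axin2 at 7.64 ± 0.10. Wif1 and Axin2 in PE, and Lgr4 and Lrp5 in SVE, lie within their spread of each other. Averaged over the 20 libraries, the highest ligand per kilobase was Wnt7b (6.92), followed by Wnt2 (6.45). On the same scale Wnt7b was above Wnt2 in PE (7.22 ± 0.05 against 5.62 ± 0.13, SD, n = 4), whereas in SVE Wnt2 was at 6.97 ± 0.13 and Wnt7b at 6.61 ± 0.45, which lie within their spread of each other.

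**Figure D1:**
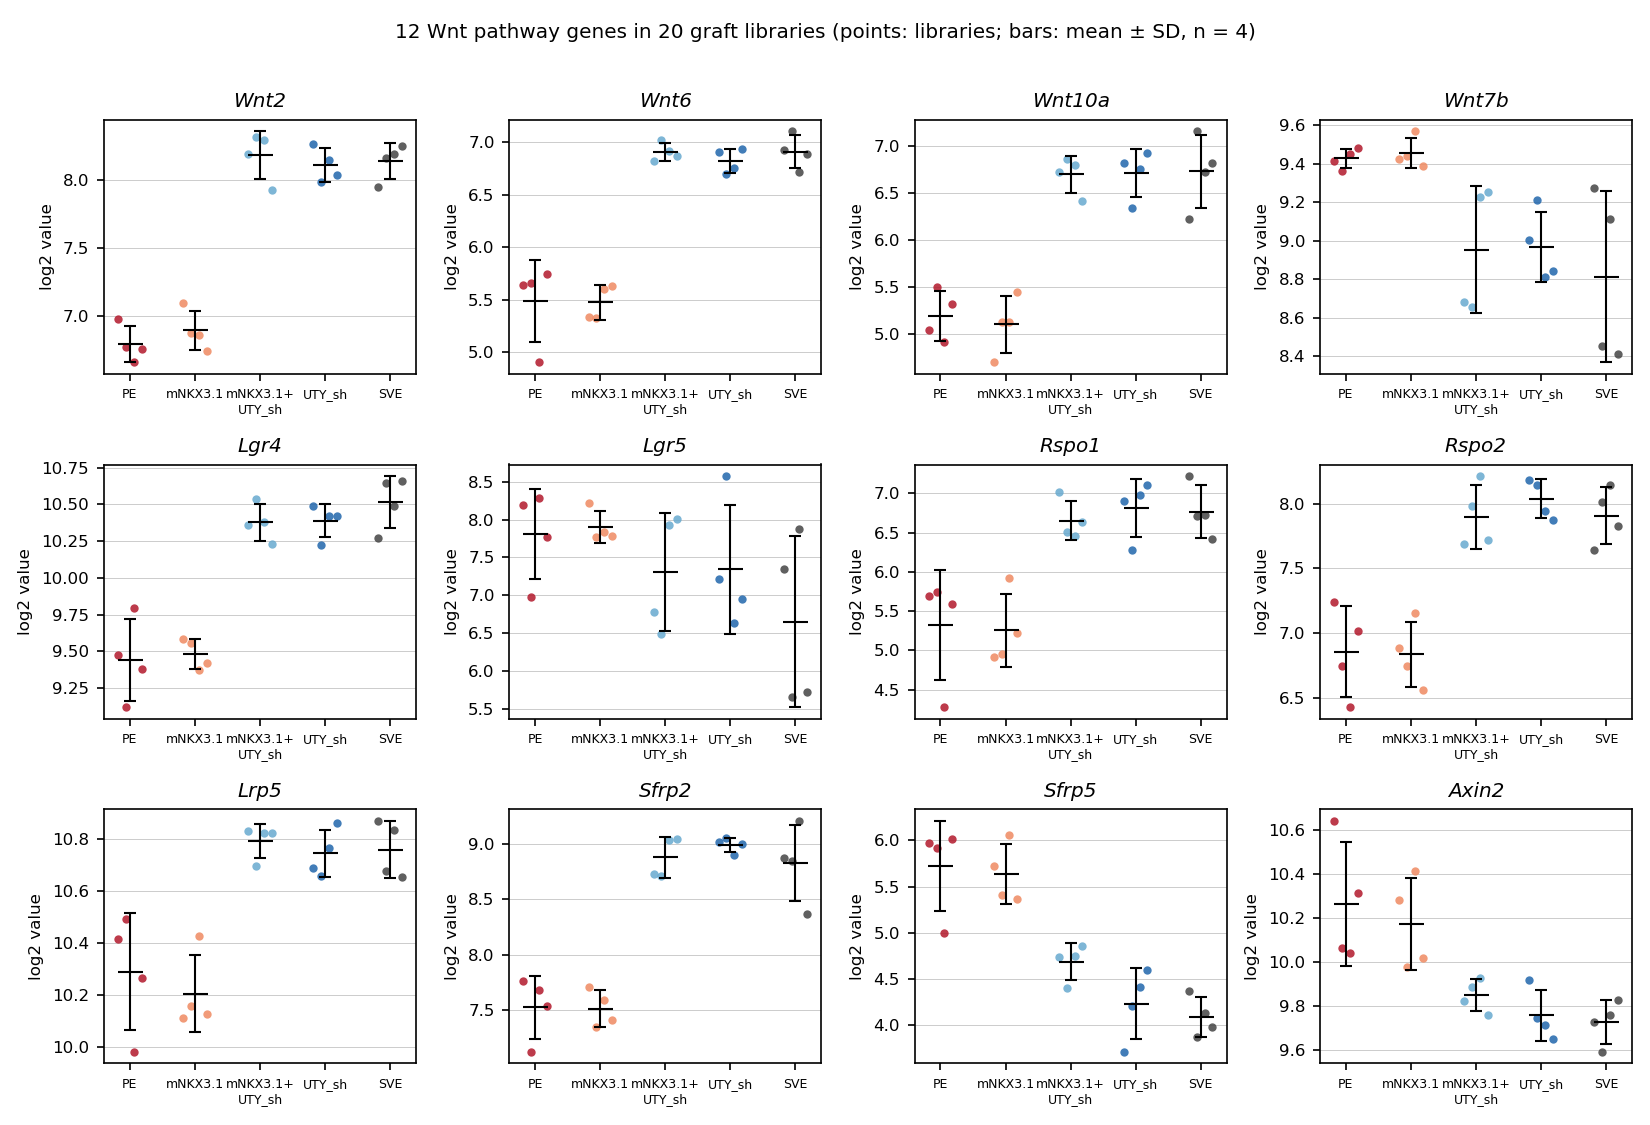
Log2 values of 12 of the genes in each of 20 libraries, by group from PE on the left to SVE on the right; points are libraries and bars are the mean ± SD of 4 libraries. In 8 panels (Wnt2, Wnt6, Wnt10a, Lgr4, Rspo1, Rspo2, Lrp5 and Sfrp2) every PE and mNKX3.1 library lies below every library of the other groups.

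The first question the design puts is how grafts of prostate epithelium differ from grafts of seminal vesicle epithelium on the same mesenchyme. In PE, 17 of the 36 tested genes were lower than in SVE (47.2%) and 5 were higher (13.9%), while over all 13456 tested genes 30.4% were lower and 31.8% higher. The share changed in either direction, 22 of 36 (61.1%), was near the 62.1% of all tested genes. A change of at least 1 on the log2 scale was found in 8 of 36 (22.2%, beside 15.8% of all tested genes), and no overlap between the groups' libraries in 19 (52.8%, beside 48.9%). The median log2 difference was -0.38 over the 36 genes and 0.02 over all tested genes. These are counts over genes that passed a filter on low values. Sfrp5 and, but for 1 library, Wnt10b passed that filter only through PE and mNKX3.1 libraries. A lower value in a whole graft cannot tell fewer cells of a type apart from less RNA per cell, and rat reads that align to mouse genes are not separated in the table.

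Of the 10 tested ligands, 5 fell and 2 rose in PE. Wnt2, a canonical ligand made by mesenchyme in several organs, had values of 6.98, 6.77, 6.66 and 6.75 in PE libraries, against 7.95, 8.16, 8.19 and 8.25 in SVE libraries. The groups do not overlap, and the highest PE library lies below the lowest SVE library by far more than either group's spread. The log2 difference was -1.35 ± 0.10 (SE), with an adjusted p of 3.42e-09.

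Wnt10a, a ligand known from tooth and skin development, and Wnt6 are neighbouring genes in the RefSeq annotation, and both were lower. Wnt6 had 5.64, 5.66, 4.91 and 5.75 in PE, against 6.93, 7.11, 6.72 and 6.89 in SVE. All PE libraries are below all SVE libraries, with PE replicate 3 the lowest. Its log2 difference was -1.42 ± 0.15 (SE; adjusted p = 2.40e-07). Wnt10a had 5.04, 5.50, 4.91 and 5.32 in PE, against 6.22, 7.16, 6.73 and 6.82 in SVE. Again no library overlaps between the groups, and the spread within SVE is wider than within PE. Its log2 difference, -1.54 ± 0.20 (SE; adjusted p = 2.67e-06), was the largest fall among the 36 genes.

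Wnt4, which directs female reproductive tract and kidney development, and Wnt9a, known from joint formation, also fell, by 0.81 and 0.74 on the log2 scale. Wnt7b, an epithelial ligand in lung and kidney and the ligand with the highest level per kilobase over all libraries, rose. It had 9.42, 9.36, 9.45 and 9.48 in PE, against 9.28, 8.45, 9.11 and 8.41 in SVE. The PE libraries lie close together and above all SVE libraries, which split into replicates 1 and 3, near the PE values, and replicates 2 and 4, lower. On the log2 scale PE differed by 0.62 ± 0.17 (SE; adjusted p = 0.00477). Wnt10b, which restrains fat cell formation, rose by 0.63 on the log2 scale (adjusted p = 0.0139), at low levels of 5.27 ± 0.30 in PE and 4.64 ± 0.20 in SVE (SD, n = 4 each). Wnt5a, a ligand of the non-canonical branch, was 8.32 ± 0.35 in PE and 8.15 ± 0.20 in SVE (SD, n = 4 each), and with Wnt2b and Wnt5b it did not pass the test. Wnt2b had an adjusted p of 0.0512 by limma and passed in 6 of 29 other settings, and Wnt5a passed in 2 of 30.

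The split of the SVE libraries seen for Wnt7b, with replicates 1 and 3 above replicates 2 and 4, recurs in several of the genes, among them Wnt4, Wnt5a, Wnt9a, Fzd2, Lrp5, Lgr5, Dkk2 and Dkk3. Others, among them Lgr4, Wnt10a, Fzd3 and Sfrp4, had the reverse split, with replicates 2 and 4 above replicates 1 and 3. The share of either split over all tested genes was not counted. In the same order of replicates, summed smooth muscle markers in SVE were 17.06, 16.69, 17.40 and 16.79 and summed seminal vesicle secretory genes were 23.27, 23.99, 23.60 and 24.05 on the log2 scale. The part of either in the genes' values was not tested.

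**Figure D2:**
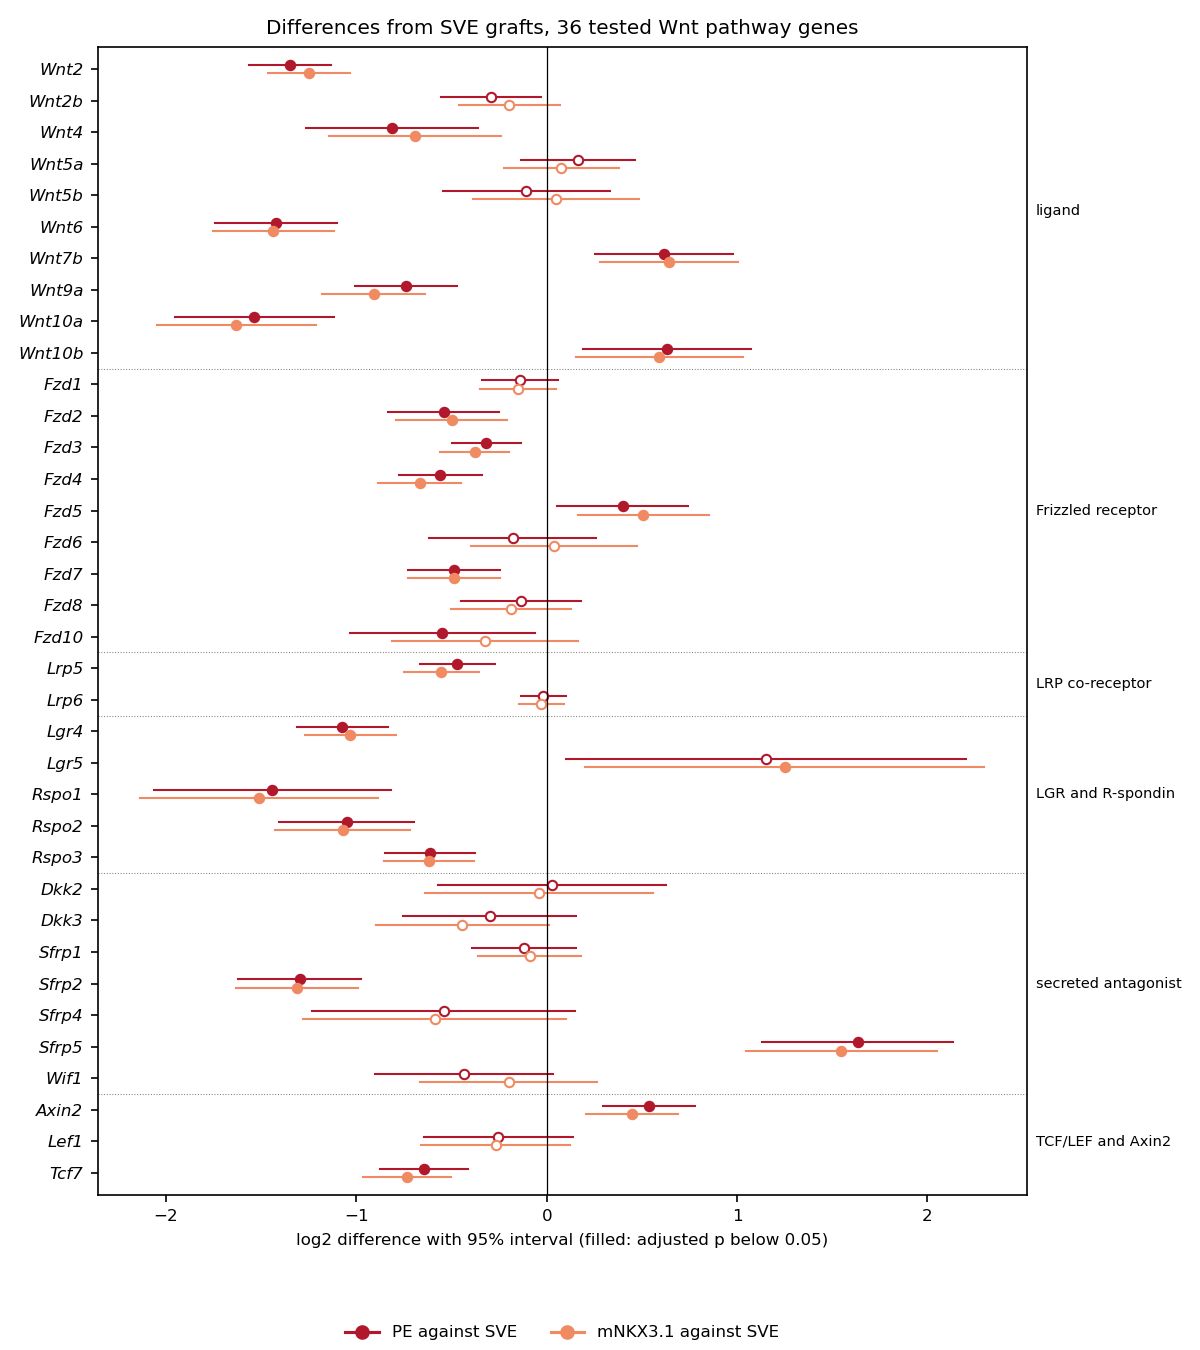
Log2 differences from SVE with 95% intervals for the 36 tested genes, grouped by role, in PE and in mNKX3.1; filled points have an adjusted p below 0.05. The 2 sets share the SVE libraries; filled points lie left of 0 for 17 genes in PE and 16 in mNKX3.1, and right of 0 for 5 and 6.

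Among the 9 tested Frizzled receptors, the membrane proteins that bind Wnts, 5 fell and 1 rose in PE. Fzd4, which is also the receptor for Norrin in retinal vessels, fell by 0.56 (adjusted p = 1.39e-04), Fzd2 by 0.54, Fzd7 by 0.49 and Fzd3, an axon guidance receptor, by 0.32, all on the log2 scale. These changes were smaller than those of the ligands named above. Fzd10 also passed, at a log2 difference of -0.55 and an adjusted p of 0.0476, but not in 15 of 29 other settings. Fzd5, a receptor with a role in the intestinal epithelium, had a log2 difference of 0.40 (adjusted p = 0.0417). That value leaned on PE replicate 3, with 9.04, 8.80, 9.82 and 8.90 in PE against 8.73, 8.88, 8.65 and 8.71 in SVE, and without it the difference was 0.17 (adjusted p = 0.18).

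Fzd1, the Frizzled with the highest mean, did not pass. It had 9.80, 9.37, 9.66 and 9.67 in PE, against 9.66, 9.73, 9.97 and 9.71 in SVE. The ranges overlap. This gave a log2 difference of -0.14 (95% interval -0.34 to 0.06; adjusted p = 0.203). The co-receptors differed from each other in outcome. Lrp6, with 10.89, 10.72, 11.04 and 10.77 in PE and 10.89, 10.89, 10.87 and 10.84 in SVE, had a difference of -0.02 on the log2 scale (95% interval -0.13 to 0.10; adjusted p = 0.799). Lrp5, known for its effect on bone mass, had 10.42, 10.49, 9.98 and 10.27 in PE, against 10.87, 10.68, 10.84 and 10.65 in SVE, with no overlap. It fell by 0.47 on the log2 scale (adjusted p = 2.78e-04). Whether Lrp5 and Lrp6 changed by different amounts was not tested.

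All 3 tested R-spondins and the receptor Lgr4 fell in PE. Rspo1, known from ovary determination, had 5.69, 5.74, 4.28 and 5.59 in PE, against 7.22, 6.71, 6.72 and 6.41 in SVE. No library overlaps, and PE replicate 3 is the lowest by a wide margin. The log2 difference was -1.44 ± 0.30 (SE; adjusted p = 3.77e-04).

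Rspo2, required in limb and lung development, had 7.24, 6.74, 6.43 and 7.02 in PE, against 7.64, 8.02, 8.15 and 7.83 in SVE. Every PE library is lower than every SVE library. Its log2 difference was -1.05 ± 0.17 (SE; adjusted p = 3.08e-05). Rspo3, an R-spondin of vessels and intestinal stroma, fell by 0.61 on the log2 scale (adjusted p = 1.31e-04).

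Lgr4, the R-spondin receptor with the widest tissue range, had 9.47, 9.12, 9.79 and 9.38 in PE, against 10.27, 10.64, 10.49 and 10.66 in SVE. The groups are well separated. On the log2 scale PE differed by -1.07 ± 0.11 (SE; adjusted p = 2.28e-07). Its relative Lgr5, the marker of intestinal stem cells, ran the other way without passing the test. It had 8.20, 6.98, 8.28 and 7.77 in PE, against 7.35, 5.66, 7.88 and 5.73 in SVE, where 2 libraries are high and 2 low, so the groups overlap. This gave a log2 difference of 1.15 ± 0.50 (SE; adjusted p = 0.053).

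Of the 7 tested antagonists, 1 fell, 1 rose and 5 did not pass. Sfrp2, a Frizzled-like protein of mesenchyme and fibroblasts, had 7.76, 7.12, 7.68 and 7.54 in PE, against 8.88, 8.85, 9.21 and 8.37 in SVE. All PE libraries are below all SVE libraries. The log2 difference was -1.30 ± 0.15 (SE; adjusted p = 8.20e-07). Its relative Sfrp5, of the same protein family, had 5.97, 5.92, 4.995 and 6.02 in PE, against 4.37, 3.87, 4.14 and 3.98 in SVE. All PE libraries are higher than all SVE libraries, and PE replicate 3 is nearest to them. Its log2 difference was 1.63 ± 0.24 (SE; adjusted p = 1.07e-05), the largest rise among the 36 genes, but the SVE values lie below the level of 5 used in the filter, where the scale is compressed.

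Wif1, the antagonist with the highest level, had 9.37, 9.41, 10.40 and 9.44 in PE, against 10.09, 10.55, 9.80 and 9.92 in SVE. PE replicate 3 lies among the SVE values and the other 3 lie below them. On the log2 scale PE differed by -0.43 ± 0.22 (SE; adjusted p = 0.0969), and without PE replicate 3 it was -0.68 (adjusted p = 0.00438). Sfrp1, Sfrp4, Dkk2 and Dkk3 did not pass.

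The 3 nuclear and feedback genes gave 1 rise, 1 fall and 1 gene that did not pass. Axin2, which is both a part of the β-catenin degradation complex and a target gene of the pathway, had 10.64, 10.06, 10.04 and 10.31 in PE, against 9.73, 9.59, 9.76 and 9.83 in SVE. The groups do not overlap, and the PE libraries are the more spread. This gave a log2 difference of 0.54 ± 0.12 (SE; adjusted p = 5.50e-04). Tcf7, a transcription factor that binds β-catenin, fell by 0.64 on the log2 scale (adjusted p = 5.46e-05), and its relative Lef1 had a difference of -0.25 (adjusted p = 0.246).

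Markers of other cells also differed between PE and SVE, some lists lower and some higher. The counts stand beside 30.4% of all tested genes lower and 31.8% higher. All 10 listed smooth muscle markers were lower in PE than in SVE, and their summed level was 15.68 to 16.15 in PE, against 16.69 to 17.40 in SVE on the log2 scale. Of 10 fibroblast and matrix markers, 5 were lower, with sums of 13.88 to 14.10 in PE and 14.08 to 14.57 in SVE. Of 4 basal markers 3 were lower and 1 higher, with sums of 10.84 to 11.38 in PE and 11.30 to 11.66 in SVE. All 5 luminal markers were higher, with sums of 14.82 to 14.97 in PE and 14.02 to 14.42 in SVE. All 5 tested nerve and Schwann markers were higher too, with sums of 8.39 to 9.63 in PE and 7.38 to 7.89 in SVE, as were all 5 tested adipocyte markers, with sums of 9.78 to 11.04 in PE and 6.81 to 9.97 in SVE. Of 6 endothelial markers 2 were lower and 1 higher, with sums of 10.14 to 10.61 in PE and 10.64 to 10.95 in SVE. Of all markers listed, Cd3e of the leukocyte list was the one gene below 5 in all 20 libraries, and 2 of 4 tested leukocyte markers were higher, with sums of 9.01 to 13.14 in PE and 9.70 to 10.01 in SVE. The part of these cells in the differences of the Wnt genes was not tested.

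**Figure D3:**
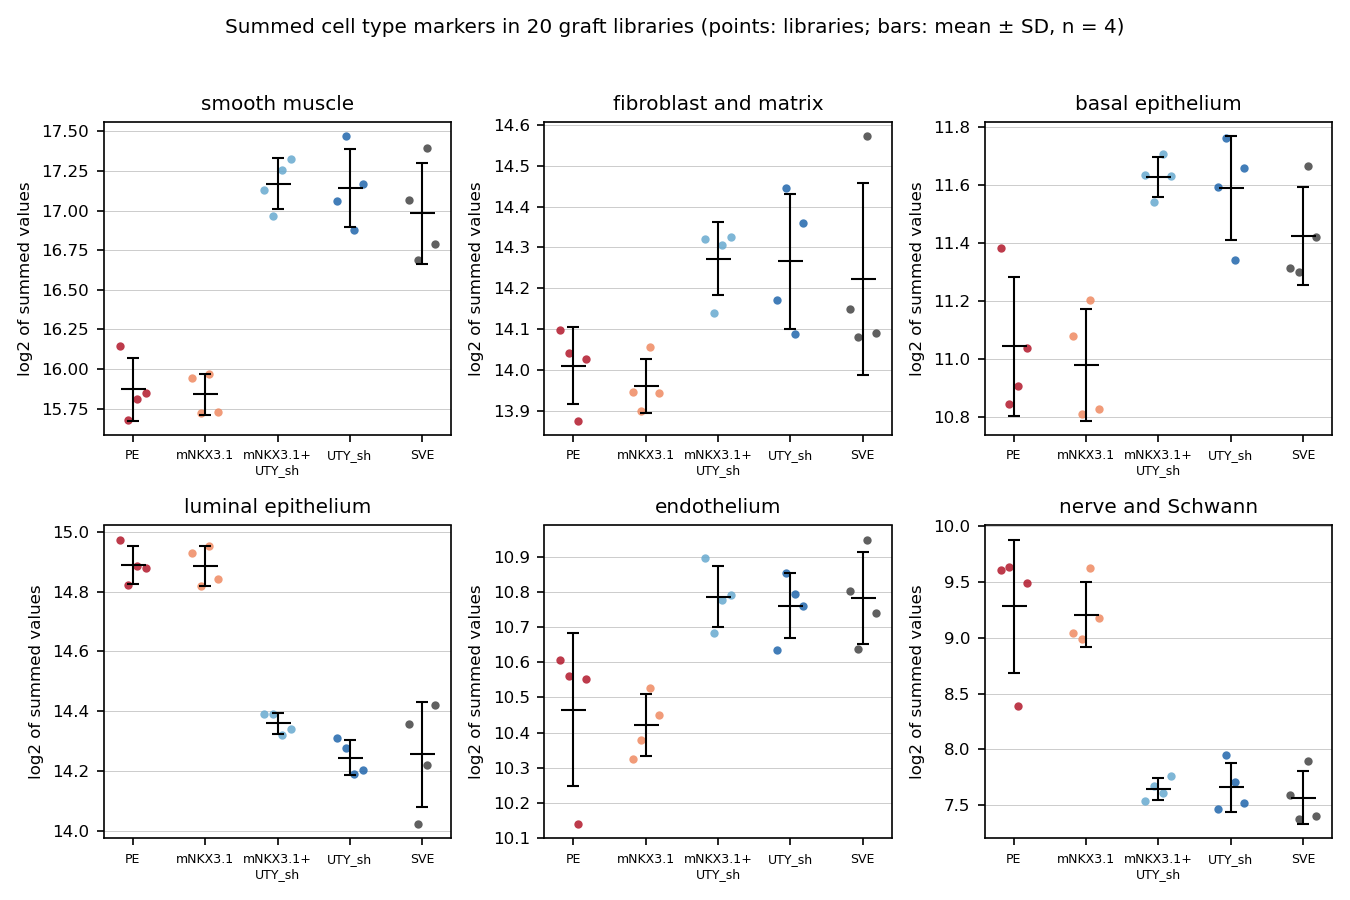
Log2 of the summed values of 6 lists of cell type markers in 20 libraries, by group; points are libraries and bars are the mean ± SD of 4 libraries. Smooth muscle sums in PE and mNKX3.1 lie between 15.68 and 16.15, below all libraries of the other 3 groups.

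The second question is how seminal vesicle grafts with the construct labelled mNKX3.1 compare with those without it. In mNKX3.1, 16 of the 36 genes were lower than in SVE (44.4%, against 30.6% of all tested genes) and 6 were higher (16.7%, against 31.7%). The share changed in either direction was 61.1%, beside 62.3% of all tested genes. A change of at least 1 was found in 9 genes (25%, beside 16.7%), and no overlap in 20 (55.6%, beside 54.9%). This comparison shares the SVE libraries with that of PE, so both sets of values are given side by side and not as separate support. The calls had the same direction for 21 genes, 16 lower and 5 higher, with 0 opposite. Fzd10 was called in PE alone and Lgr5 in mNKX3.1 alone. How often calls matched over all tested genes was not counted, so the match is not a result about these genes in particular.

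The ligands that fell were the same 5. Wnt10a had 4.70, 5.13, 5.13 and 5.45 in mNKX3.1, against 6.22, 7.16, 6.73 and 6.82 in SVE. The lowest of all 20 libraries for this gene is mNKX3.1 replicate 1, and no mNKX3.1 library reaches the SVE values. The log2 difference was -1.63 ± 0.20 (SE; adjusted p = 1.32e-06). Wnt6 had 5.34, 5.33, 5.60 and 5.64 in mNKX3.1 and a log2 difference of -1.44 ± 0.15 (SE; adjusted p = 2.21e-07). Wnt2 had 7.09, 6.87, 6.86 and 6.74 in mNKX3.1 and a log2 difference of -1.25 ± 0.10 (SE; adjusted p = 9.54e-09). Neither gene's mNKX3.1 libraries overlap the SVE libraries given above. Wnt9a fell by 0.91 and Wnt4 by 0.69, while Wnt7b rose by 0.64 (adjusted p = 0.00349) and Wnt10b by 0.59 (adjusted p = 0.02), all on the log2 scale. The Wnt10b call was lost without mNKX3.1 replicate 4 or SVE replicate 2. Wnt7b values in mNKX3.1 were 9.42, 9.44, 9.57 and 9.39, as close together as in PE.

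On the receptor side, Lgr4 had 9.58, 9.56, 9.37 and 9.42 in mNKX3.1, all below the SVE libraries, and a log2 difference of -1.03 ± 0.11 (SE; adjusted p = 3.76e-07). Rspo1 had 4.92, 4.96, 5.92 and 5.23 and a log2 difference of -1.51 ± 0.30 (SE; adjusted p = 2.42e-04). Rspo2 had 6.89, 6.74, 7.15 and 6.56 and a log2 difference of -1.07 ± 0.17 (SE; adjusted p = 2.49e-05). The R-spondin values of mNKX3.1 thus also lie wholly below those of SVE. Lgr5 had 8.22, 7.77, 7.84 and 7.79 in mNKX3.1, which overlap the SVE libraries, and rose by 1.25 ± 0.50 on the log2 scale (SE; adjusted p = 0.0373). That call was lost without SVE replicate 2 or 4 and without any 1 of the mNKX3.1 libraries, with adjusted p up to 0.133. Lrp5 had 10.11, 10.16, 10.43 and 10.13 and fell by 0.55 on the log2 scale, and Lrp6 had 10.86, 10.85, 10.85 and 10.82, with a difference of -0.03 that did not pass. Of the Frizzled receptors, Fzd2, Fzd3, Fzd4 and Fzd7 fell by 0.38 to 0.67 on the log2 scale. Fzd5 rose by 0.51 (adjusted p = 0.012), with 9.44, 9.37, 8.93 and 9.26 in mNKX3.1, all above the SVE libraries. Fzd1, with 9.71, 9.53, 9.74 and 9.50, did not pass.

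Sfrp2 had 7.71, 7.35, 7.59 and 7.41 in mNKX3.1 and a log2 difference of -1.31 ± 0.15 (SE; adjusted p = 7.23e-07). Sfrp5 had 5.72, 5.41, 6.06 and 5.37 and a log2 difference of 1.55 ± 0.24 (SE; adjusted p = 1.99e-05). These 2 antagonists thus moved in opposite directions here too, each with no overlap with SVE, while the other 5 tested did not pass. Sfrp5 passed the filter on low values only through PE and mNKX3.1 libraries. Wif1 had 10.04, 10.05, 9.48 and 9.98 in mNKX3.1, a difference of -0.20 that did not pass. Axin2 had 10.28, 9.98, 10.42 and 10.02 in mNKX3.1, all above the SVE libraries, and rose by 0.45 ± 0.12 on the log2 scale (SE; adjusted p = 0.00262). Tcf7 fell by 0.73 (adjusted p = 1.31e-05). Smooth muscle sums were 15.72 to 15.97 in mNKX3.1, below those of SVE, with all 10 markers lower. Also lower in mNKX3.1 than in SVE were 6 of 10 fibroblast and matrix, 3 of 4 basal (1 higher) and 3 of 6 endothelial markers (1 higher). All 5 luminal, all 5 tested adipocyte, all 5 tested nerve and Schwann and 2 of 4 tested leukocyte markers were higher. Of all tested genes 30.6% were lower and 31.7% higher. Adipocyte sums were 9.88 to 10.62 in mNKX3.1 and 6.81 to 9.97 in SVE, and nerve and Schwann sums were 8.98 to 9.62 in mNKX3.1 and 7.38 to 7.89 in SVE, on the log2 scale. The part of these cells in the differences was not tested.

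Set directly against PE, mNKX3.1 differed in none of the 36 genes by limma at an adjusted p below 0.05, which holds for 0% of all tested genes. At an unadjusted p below 0.05 the count was 0 of 36 members and 65 of 13456 genes (0.483%), and the groups' libraries did not overlap in 0 members and 0.639% of all genes. Equal groups of independent libraries would give a share near 0.05, far above 0.483%. The count of 0 thus does not show that the groups are equal. For Wif1, PE replicate 3 (10.40) lay nearer mNKX3.1 replicates 1, 2 and 4 (10.04, 10.05 and 9.98) than the other PE libraries. In turn mNKX3.1 replicate 3 (9.48) lay near those PE libraries (9.37, 9.41 and 9.44). Fzd5, Rspo1 and Sfrp5 had a like pattern, as had the seminal vesicle secretory, nerve and Schwann, and adipocyte sums given above. Its cause was not tested. The largest difference in each direction was 0.24 for Wif1 (95% interval -0.23 to 0.70) and -0.17 for Wnt9a (95% interval -0.44 to 0.10) on the log2 scale. Over the 36 genes the 95% interval had a median half-width of 0.32 and reached 1.05 for Lgr5. With weights that give variable libraries less influence, 3 members were called, Fzd5 and Wif1 higher and Tcf7 lower in mNKX3.1 than in PE, beside 529 genes higher and 321 lower in all.

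**Figure D4:**
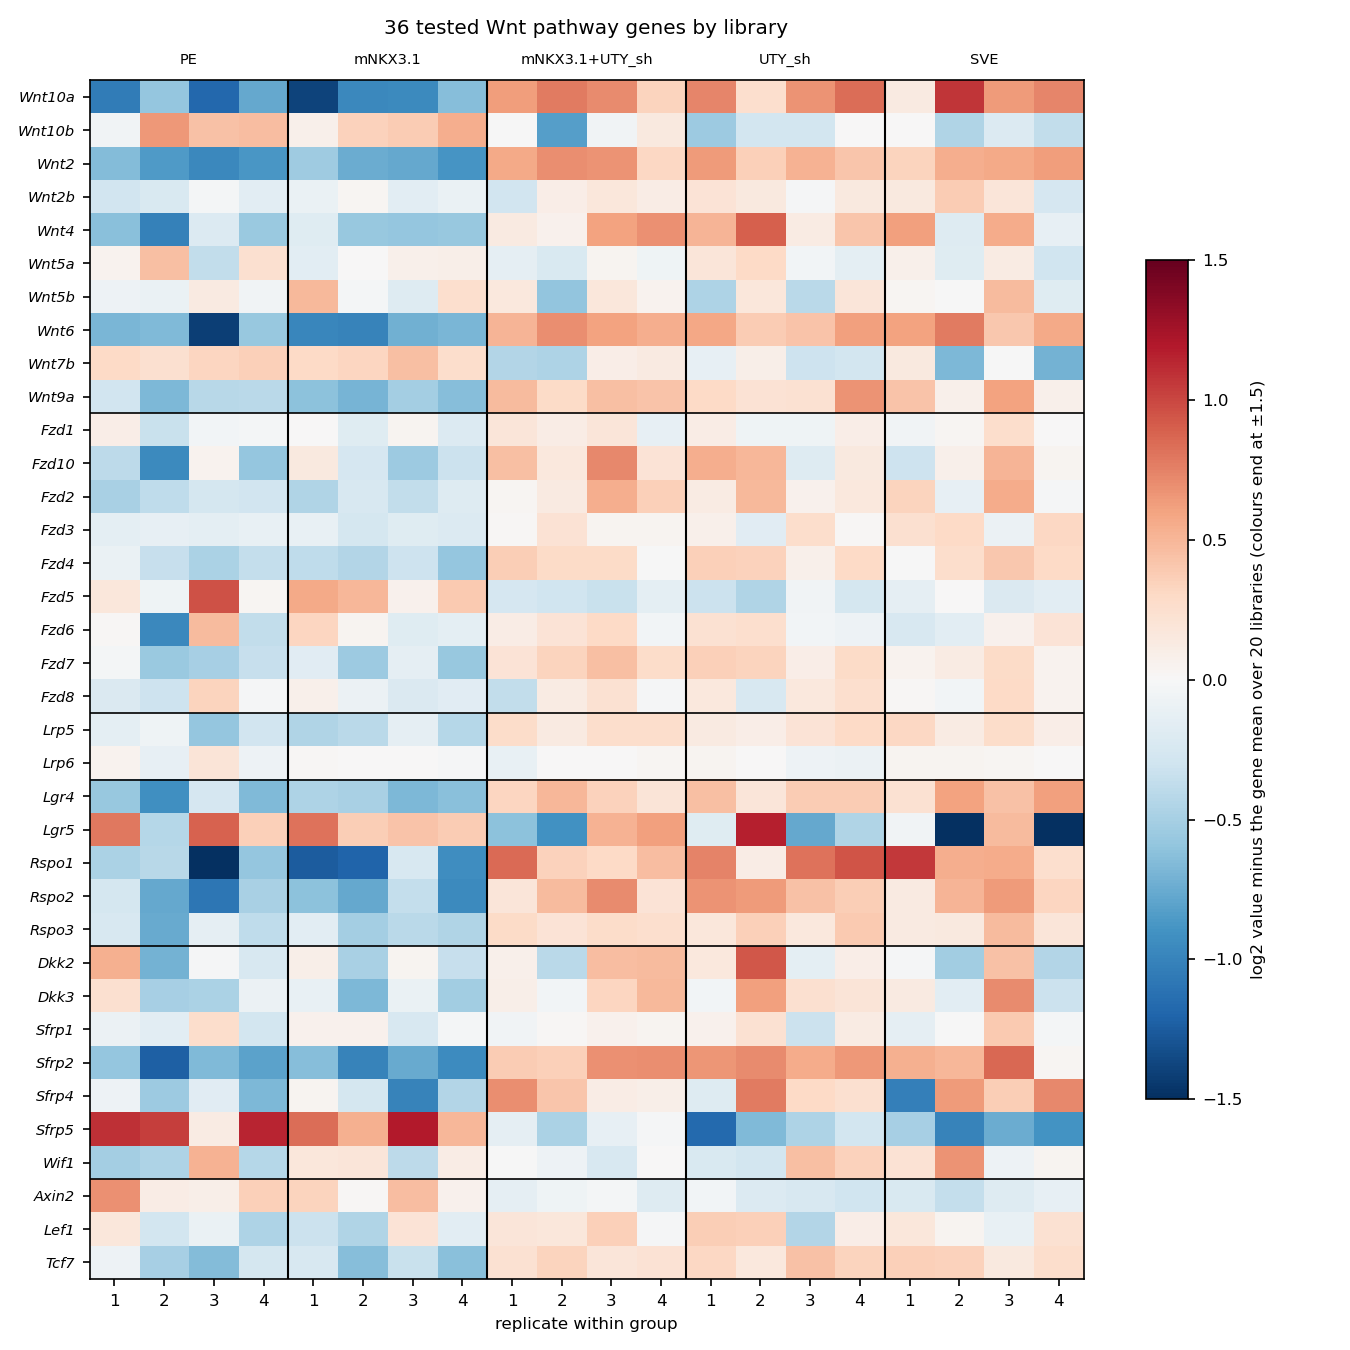
Log2 values of the 36 tested genes in each of the 20 libraries, each gene centred on its mean over all libraries, with genes grouped by role and colours that end at ±1.5. PE and mNKX3.1 libraries share their colours across most rows, and the 3 other groups share the opposite ones, while Lgr5, Dkk2 and Wif1 vary within groups.

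The hairpin groups ask what the construct's grafts look like when the hairpin labelled UTY_sh is added. In mNKX3.1+UTY_sh, 18 of the 36 genes were higher than in mNKX3.1 (50%, against 31.4% of all tested genes) and 5 were lower (13.9%, against 32.4%). The share changed in either direction was 63.9%, against 63.8% of all tested genes. A change of at least 1 was found in 7 genes (19.4%, beside 17.3%), and no overlap in 23 (63.9%, beside 61.9%). The 16 genes that were lower in mNKX3.1 than in SVE were all among the 18, and the 5 lower genes, Sfrp5, Fzd5, Wnt10b, Wnt7b and Axin2, had all been higher in mNKX3.1. Both comparisons use the same mNKX3.1 libraries, so opposite signs are not separate support. How often calls had opposite signs over all tested genes was not counted. Sfrp5 and, but for 1 library, Wnt10b passed the filter on low values only through PE and mNKX3.1 libraries. Their lower values in mNKX3.1+UTY_sh are thus partly set by that filter. The other 2 of the 18 were Fzd10 and Dkk3, a divergent DKK protein. The Fzd10 call was lost without mNKX3.1 replicate 3 or 4 and without mNKX3.1+UTY_sh replicate 1 or 3 (adjusted p up to 0.0812). That of Dkk3 was lost without mNKX3.1 replicate 2 or 4, without mNKX3.1+UTY_sh replicate 3 or 4 and without the 3 libraries rich in prostate secretory RNA (adjusted p up to 0.107).

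Among the ligands, Wnt2 had 8.19, 8.32, 8.29 and 7.93 in mNKX3.1+UTY_sh, against 7.09, 6.87, 6.86 and 6.74 in mNKX3.1. The groups are far apart. The log2 difference was 1.29 ± 0.10 (SE; adjusted p = 5.81e-09). Wnt6 had 6.83, 7.02, 6.92 and 6.87 in mNKX3.1+UTY_sh, all above the mNKX3.1 libraries given above, and a log2 difference of 1.43 ± 0.15 (SE; adjusted p = 2.14e-07). Wnt10a had 6.72, 6.86, 6.79 and 6.42 and a log2 difference of 1.60 ± 0.20 (SE; adjusted p = 1.59e-06), the largest of the 36 genes. Wnt9a rose by 1.02 and Wnt4 by 0.85 on the log2 scale. Wnt7b had 8.68, 8.65, 9.23 and 9.25 in mNKX3.1+UTY_sh, where replicates 1 and 2 are low and replicates 3 and 4 near the mNKX3.1 values. It fell by 0.50 on the log2 scale (adjusted p = 0.0169), a call lost without mNKX3.1+UTY_sh replicate 1 or 2.

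Lgr4 had 10.36, 10.54, 10.38 and 10.23 in mNKX3.1+UTY_sh, against 9.58, 9.56, 9.37 and 9.42 in mNKX3.1, with no overlap and a log2 difference of 0.90 ± 0.11 (SE; adjusted p = 2.05e-06). Rspo1 had 7.02, 6.51, 6.46 and 6.63 in mNKX3.1+UTY_sh and a log2 difference of 1.40 ± 0.30 (SE; adjusted p = 4.80e-04). Rspo2 had 7.69, 7.98, 8.21 and 7.72 and a log2 difference of 1.06 ± 0.17 (SE; adjusted p = 2.60e-05). The R-spondin libraries of the groups do not overlap either. Lgr5 did not pass: it had 6.78, 6.49, 7.93 and 8.01 in mNKX3.1+UTY_sh and a log2 difference of -0.60 ± 0.50 (SE; adjusted p = 0.306). Replicates 3 and 4 of mNKX3.1+UTY_sh are high for Lgr5 as they are for Wnt7b. The same 2 libraries had prostate secretory sums of 15.04 and 17.30, against 8.87 and 9.85 in replicates 1 and 2, on the log2 scale, and the part of this in either gene was not tested.

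Sfrp2 had 8.73, 8.71, 9.04 and 9.05 in mNKX3.1+UTY_sh, above every mNKX3.1 library, and a log2 difference of 1.37 ± 0.15 (SE; adjusted p = 4.28e-07). Sfrp5 had 4.74, 4.40, 4.75 and 4.86, below every mNKX3.1 library, and a log2 difference of -0.95 ± 0.24 (SE; adjusted p = 0.00207). Axin2 had 9.82, 9.89, 9.93 and 9.76 in mNKX3.1+UTY_sh, again below every mNKX3.1 library. It fell by 0.32 on the log2 scale (adjusted p = 0.0202), a call lost without mNKX3.1 replicate 1 or 3, without mNKX3.1+UTY_sh replicate 4 and without the 3 libraries rich in prostate secretory RNA. All 10 smooth muscle markers were higher in mNKX3.1+UTY_sh, with sums of 16.97 to 17.33 on the log2 scale, against 15.72 to 15.97 in mNKX3.1. Higher as well were 5 of 10 fibroblast and matrix, 3 of 4 basal (1 lower) and 3 of 6 endothelial markers (1 lower). All 5 tested adipocyte markers, all 5 tested nerve and Schwann markers, 3 of 5 luminal and 2 of 4 tested leukocyte markers were lower. Of all tested genes 31.4% were higher and 32.4% lower. Adipocyte sums were 7.41 to 8.31 in mNKX3.1+UTY_sh and 9.88 to 10.62 in mNKX3.1, and nerve and Schwann sums were 7.54 to 7.76 in mNKX3.1+UTY_sh and 8.98 to 9.62 in mNKX3.1. What part these cells had in the differences was not tested.

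**Figure D5:**
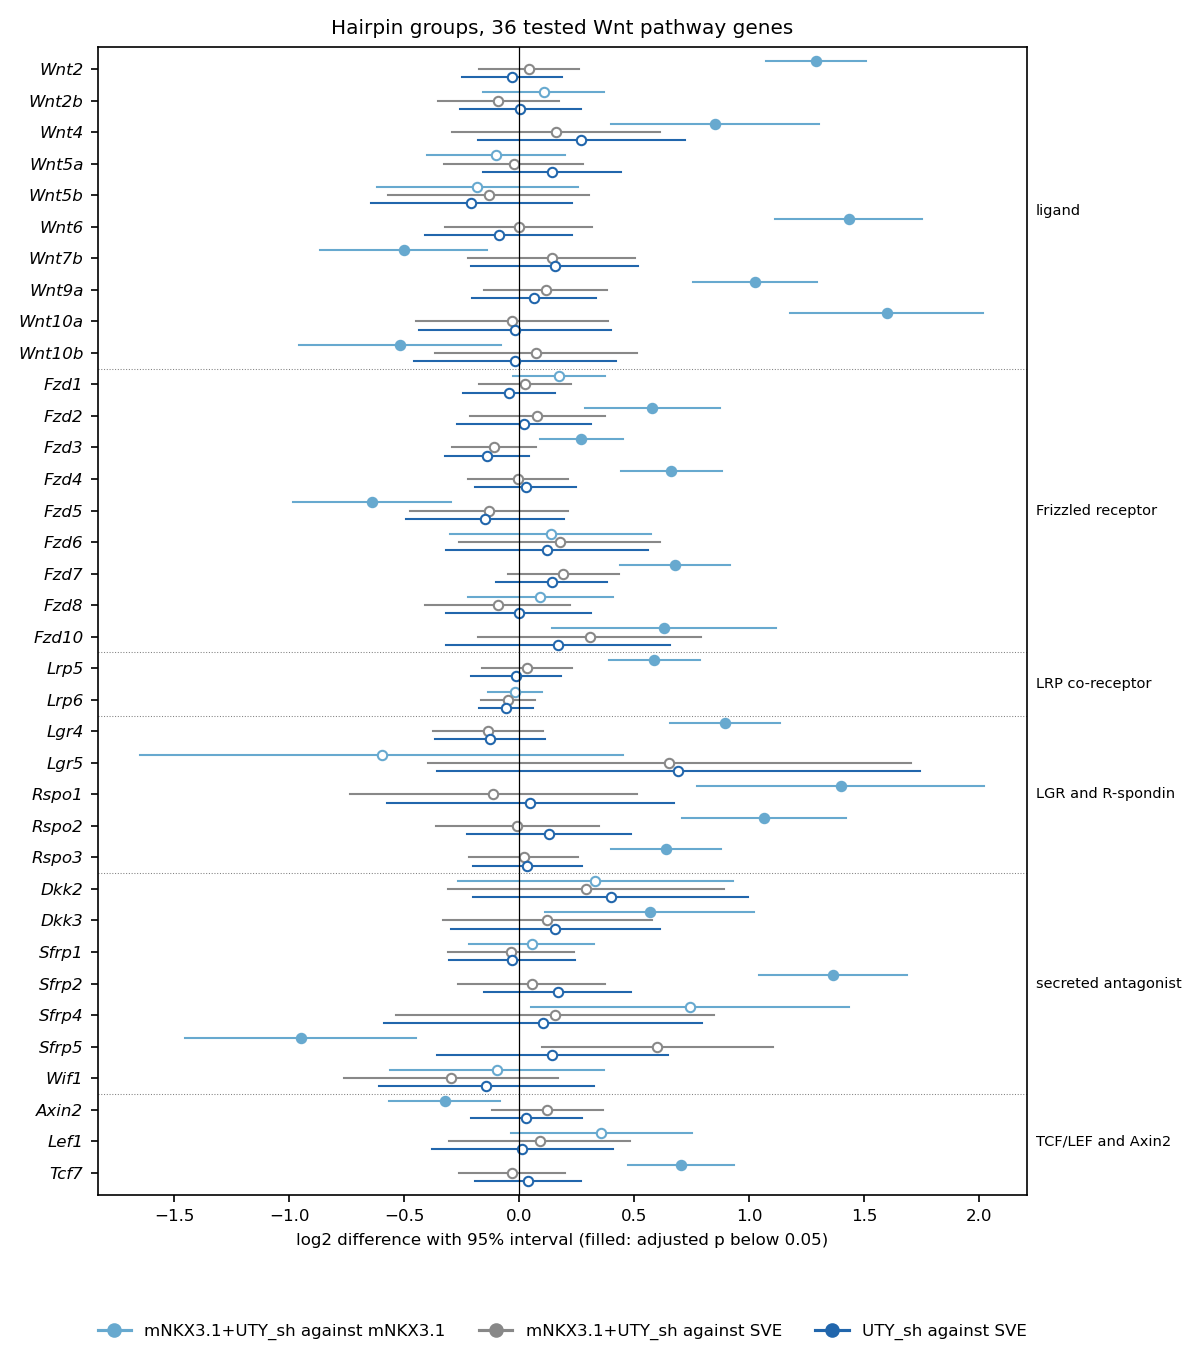
Log2 differences with 95% intervals for the 36 tested genes, grouped by role, for mNKX3.1+UTY_sh set against mNKX3.1 and against SVE, and for UTY_sh set against SVE; filled points have an adjusted p below 0.05. Filled points occur only in the first of these comparisons, 18 to the right of 0 and 5 to the left.

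Against SVE, mNKX3.1+UTY_sh had 0 of 36 genes called by limma, with 0% of the 13456 tested genes called. At an unadjusted p below 0.05 the count was 1 of 36, beside 557 genes (4.14%). That gene was Sfrp5, named after its value was seen, with 4.74, 4.40, 4.75 and 4.86 in mNKX3.1+UTY_sh against 4.37, 3.87, 4.14 and 3.98 in SVE. The groups do not overlap, and the log2 difference was 0.60 (95% interval 0.10 to 1.10). Members whose groups do not overlap were 1 of 36 (2.78%), beside 2.43% of all tested genes. Wnt2, Lgr4 and Sfrp2 differed from SVE by 0.04 (95% interval -0.17 to 0.26), -0.14 (-0.38 to 0.10) and 0.05 (-0.27 to 0.37) on the log2 scale.

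The libraries labelled UTY_sh without the construct also had 0 of 36 genes called against SVE, with 0% of all tested genes called. At an unadjusted p below 0.05 there were 0 of 36 members and 316 genes (2.35%), and the groups did not overlap in 0 members and 1.23% of all genes. Wnt2 had 8.26, 7.98, 8.14 and 8.04 in UTY_sh, a log2 difference of -0.03 (95% interval -0.25 to 0.19). Lgr4 had 10.49, 10.23, 10.42 and 10.42, a difference of -0.13 (95% interval -0.37 to 0.11), and Axin2 had 9.92, 9.75, 9.71 and 9.65, a difference of 0.03 (95% interval -0.21 to 0.27). Each of these overlaps SVE. The largest difference was that of Lgr5, 0.69 (95% interval -0.36 to 1.74), with 7.22, 8.57, 6.64 and 6.95 in UTY_sh, where replicate 2 holds the highest value of all 20 libraries.

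Whether the hairpin groups differed more with the construct (mNKX3.1+UTY_sh minus mNKX3.1) than without it (UTY_sh minus SVE) was tested as an interaction. It was called in 17 of 36 genes (47.2%, beside 48.1% of all tested genes), 15 in the higher direction (41.7%, beside 24% of all genes) and 2 in the lower (5.56%, beside 24%). The largest in the higher direction were Wnt10a at 1.62 ± 0.28 (SE; adjusted p = 1.40e-04), Wnt6 at 1.52 ± 0.21 and Rspo1 at 1.35 ± 0.42 on the log2 scale. Sfrp5, at -1.09 ± 0.34, and Wnt7b, at -0.66 ± 0.24, were the lower ones. Sfrp5 passed the filter on low values only through PE and mNKX3.1 libraries, so its direction is partly set by that filter. The Axin2 interaction, -0.35 ± 0.16, did not pass (adjusted p = 0.081).

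The other 14 genes had values under 5 in nearly all libraries and were not tested with the rest. They are the ligands Wnt1, Wnt3, Wnt3a, Wnt7a, Wnt8a, Wnt8b, Wnt9b, Wnt11 and Wnt16, with Fzd9, Lgr6, Rspo4, Dkk1 and Dkk4. Their values in single libraries ran from 1.13 to 5.25. Wnt3, a ligand of the early embryo and of intestinal crypts, had 1.96, 1.39, 2.36 and 2.57 in PE and 1.78, 2.35, 2.09 and 2.45 in mNKX3.1, against 4.60, 5.25, 4.82 and 4.12 in mNKX3.1+UTY_sh, 4.69, 4.25, 4.36 and 4.93 in UTY_sh and 3.43, 4.80, 4.80 and 4.62 in SVE. The PE and mNKX3.1 libraries all lie near the floor, and each lies below every library of the other groups. In a fit without the filter, Wnt3 had a log2 difference of -2.34 ± 0.32 in PE (SE; adjusted p = 6.13e-06) and -2.25 ± 0.32 in mNKX3.1 (adjusted p = 1.05e-05) against SVE, and of 2.53 ± 0.32 in mNKX3.1+UTY_sh against mNKX3.1 (adjusted p = 2.26e-06). On a compressed scale these understate the difference in RNA. In the same fit Wnt8b was called lower in PE (-1.10; adjusted p = 0.0239) and in mNKX3.1 (-1.17; adjusted p = 0.0167) and higher in mNKX3.1+UTY_sh than in mNKX3.1 (1.27; adjusted p = 0.00928), and Dkk1 lower in mNKX3.1+UTY_sh than in mNKX3.1 (-0.98; adjusted p = 0.0124). Both genes were at or below 4.34 in every library.

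Other genes of the pathway, from 5 lists, place these genes among the steps before and after them. The counts stand beside 31.8% of all tested genes higher and 30.4% lower in PE than in SVE. Of 6 genes of Wnt secretion and acylation, 2 were higher and 2 lower in PE, near those shares. Notum, the secreted enzyme that strips the lipid from Wnts, fell most, to 5.22 ± 0.36 in PE and 5.17 ± 0.19 in mNKX3.1, against 8.41 ± 0.13 in mNKX3.1+UTY_sh and 8.25 ± 0.16 in SVE (mean ± SD, n = 4 each). Its log2 difference in PE was -3.03 (adjusted p = 6.63e-12). Wls, which carries Wnts to the cell surface, fell by 0.30 on the log2 scale, and Sec22b, a vesicle-fusion protein of the secretory pathway, rose by 0.36.

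Of 10 tested genes among other antagonists and binders, 3 rose and 2 fell in PE, beside 31.8% and 30.4% of all tested genes. Gpc3, a glypican that binds Wnts, rose by 1.37 on the log2 scale. Frzb, a further Frizzled-related antagonist, fell by 1.64, and Kremen1, the receptor through which DKK proteins remove LRP6, fell by 0.80. Of 24 tested genes of the destruction complex and of transduction, 6 rose and 10 fell, beside the same 31.8% and 30.4%. Among them were Btrc, the ubiquitin ligase subunit that recognises β-catenin, higher by 0.94, the corepressor Tle3, higher by 1.08, and Tcf7l2, a TCF of epithelia, which fell by 1.0. Of 14 tested planar polarity genes and non-canonical receptors, 10 fell and 1 rose, beside 30.4% and 31.8% of all tested genes. Ptk7 fell by 1.32, Celsr2 by 1.26 and Ryk by 0.73 on the log2 scale.

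Of 11 tested feedback and target genes, 3 rose and 5 fell in PE, beside 31.8% and 30.4% of all tested genes. Notum, given above with the secretion genes, is in this list as well, and its difference of -3.03 is among the 5 falls. Sp5, a transcription factor induced by Wnt signals, was 8.59 ± 0.09 in PE and 8.50 ± 0.10 in mNKX3.1, against 3.73 ± 1.48 in mNKX3.1+UTY_sh, 3.79 ± 0.89 in UTY_sh and 3.61 ± 1.37 in SVE (mean ± SD, n = 4 each). The last 3 groups are below the level of 5 on average, where the scale is compressed, and the gene passed the filter through PE and mNKX3.1. It was called higher in PE than in SVE (adjusted p = 2.32e-06), and no fold is given. Ccnd1, the cyclin D1 gene, was 10.29 ± 0.51 in PE and 10.21 ± 0.36 in mNKX3.1, against 12.59 ± 0.14 in mNKX3.1+UTY_sh and 12.62 ± 0.24 in SVE, and it fell by 2.33 in PE on the log2 scale. Over the 5 lists the median log2 differences in PE were 0.27, 0.09, -0.13, -0.60 and -0.22 in the order given here, beside 0.02 over all tested genes.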

How the data were processed

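Poly-A RNA of the grafts was sequenced as 20 TruSeq libraries, per the labels' protocols. Per the submitters' processing notes, mm9, TopHat2 2.0.4, Cufflinks 2.0.2, DESeq and bcl2fastq 1.8.4 were used; the order, and how rat reads were handled, are not given in those notes. The authors deposited 1 log2 value per gene and library, scaled between libraries and compressed at low values (median 2.27 over the 5801 genes averaging below 2.5). Low values do not step in whole reads, so the counts behind them are unknown and no count model was used. Reads per library were estimated from the step between values from 11 to 13.

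The planned test added a pseudocount to linear values; the values were already log2, so none was added. With limma 3.58.1 (R 4.3.3) 1 model with a mean per group and a variance trend was fitted to the 20 libraries, over 13456 of 23284 genes with a value of at least 5 in at least 4 libraries. P-values were adjusted by Benjamini-Hochberg over all tested genes. The script was tested on simulated data. Full statistics are given for genes called in PE or mNKX3.1 against SVE with a log2 difference of at least 1 in size, and for the gene with the highest mean in each role. From each other list, the up to 3 called genes with the smallest p in PE against SVE are named. The gene of the construct is not reported here. The members and lists were chosen with earlier results of these data known. Exon lengths came from GENCODE and promoters from RefSeq, both on GRCm38, so no other coordinates are given. The labels give no batch. Replicate numbers follow the accession order and pair nothing. Alternatives were other filters, scalings and weights, a stricter threshold, and leaving out libraries.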

Additional observations from a re-analysis of the deposited data

Results flagged for a closer look

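Single libraries that lay far from the other 3 of their group were found in 13 of 180 groups of 4 examined (36 genes in 5 groups). Chance flags about 1 in 20 groups. PE replicate 3 was flagged for 4 genes: Wnt6 was 4.91 there, with 5.64 to 5.75 in the other PE libraries. Rspo1 was 4.28, with 5.59 to 5.74 in the others. Sfrp5 was 4.995, with 5.92 to 6.02 in the others, and Wif1 was 10.40, with 9.37 to 9.44 in the others. Without this library the log2 differences of PE from SVE were -1.23 for Wnt6, -1.09 for Rspo1, 1.88 for Sfrp5 and -0.68 for Wif1, all with an adjusted p below 0.05 by limma, which Wif1 had not reached with it.

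In mNKX3.1, replicate 1 was high for Lgr5 (8.22, with 7.77 to 7.84 in the others) and for Wnt4 (7.61, with 7.21 to 7.23). Replicate 3 was high for Lrp5 (10.43, with 10.11 to 10.16) and low for Wif1 (9.48, with 9.98 to 10.05). In mNKX3.1+UTY_sh, replicate 2 was high for Fzd3 (9.60, with 9.41 to 9.43) and low for Lrp5 (10.70, with 10.82 to 10.83) and Wnt5b (4.83, with 5.47 to 5.59), and replicate 1 was low for Wnt2b (6.13, with 6.51 to 6.58). In SVE, replicate 3 was high for Rspo3 (9.05, with 8.71 to 8.76).

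The interaction, which is mNKX3.1+UTY_sh minus mNKX3.1 less UTY_sh minus SVE, is given on the log2 scale. It passed the test in 17 of 36 genes (47.2%), near the 48.1% of all tested genes. It was in the higher direction in 15 (41.7%, beside 24%) and in the lower direction in 2 (5.56%, beside 24%). Among ligands it was 1.62 for Wnt10a, 1.52 for Wnt6, 1.32 for Wnt2, 0.96 for Wnt9a and -0.66 for Wnt7b. For the R-spondins it was 1.35 for Rspo1, 0.93 for Rspo2 and 0.60 for Rspo3, and for the receptor Lgr4 it was 1.02. Among Frizzled receptors it was 0.63 for Fzd4, 0.56 for Fzd2, 0.54 for Fzd7 and 0.41 for Fzd3. The co-receptor Lrp5 had 0.60 and the transcription factor Tcf7 had 0.66. Among antagonists it was 1.20 for Sfrp2 and -1.09 for Sfrp5, and 5 of the 7 tested did not pass. Sfrp5 passed the filter on low values only through PE and mNKX3.1 libraries.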

How the results depend on the processing

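Leaving out 1 library at a time, the 36 genes gave 21 to 24 calls for PE against SVE, 20 to 23 for mNKX3.1 against SVE, 20 to 24 for mNKX3.1+UTY_sh against mNKX3.1 and 16 to 18 for the interaction. With all libraries, the shares of all tested genes called were 62.1%, 62.3%, 63.8% and 48.1% in that order. Each of the remaining 3 comparisons gave 0 in every fit with 1 library left out, for these genes and over all tested genes. Weighting the libraries gave 3 calls for mNKX3.1 against PE, against 0 as reported, beside 529 genes higher and 321 lower over all tested genes. The cause was not tested. Without the 3 libraries rich in prostate secretory RNA the counts were 23, 23, 23 and 18 in the order above. In the interaction 3092 of all 13415 genes tested without them were higher and 3090 lower. With the stricter minimum value of 7, which tests 25 of the genes, they were 16, 17, 17 and 13. Over all 10633 genes tested at that minimum, 3659 were higher and 3338 lower in PE against SVE. For mNKX3.1 against SVE these were 3609 and 3360, for mNKX3.1+UTY_sh against mNKX3.1 3421 and 3723, and for the interaction 2736 and 2829. At an adjusted p below 0.01 by limma, 3 of the 36 genes were higher and 16 lower in PE against SVE, beside 3452 and 3318 of 13456. In mNKX3.1 against SVE the counts were 3 and 16, beside 3424 and 3371. In mNKX3.1+UTY_sh against mNKX3.1 they were 15 and 2, beside 3503 and 3527, and in the interaction 12 and 0, beside 2372 and 2357. No gene's call changed sign under any alternative. Calls that were lost most often were those of Fzd10 (15 alternatives) and Fzd5 (10) in PE, Wnt7b in the interaction (7), Wnt10b in mNKX3.1+UTY_sh against mNKX3.1 (7), Lgr5 in mNKX3.1 (6) and Fzd2 in the interaction (6). In PE against SVE, calls were gained for Lgr5 (7 alternatives), Wnt2b (6), Sfrp4 (3), Wif1 (2), Wnt5a (2), Lef1 (1) and Sfrp1 (1). Scaling each library by its reads outside the most abundant genes, chosen after seeing the data, gave 22, 22, 23 and 17. With that scaling, 3793 genes were higher and 4512 lower of 13456 in PE against SVE. For mNKX3.1 against SVE these were 3918 and 4426, for mNKX3.1+UTY_sh against mNKX3.1 4497 and 3994, and for the interaction 3466 and 3015. What depth limits at low values could not be measured, since the counts behind them are unknown. No paired analysis was possible because the replicate numbers only follow the order of the accessions.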
